A study of Homo sapiens with 16 samples.

Results

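The 8 shScramble libraries of an RNA sequencing series in MDA-MB-231 cells, 8 of the 16 libraries in the series, were compared with one another by replicate number. MDA-MB-231 is an established human triple-negative breast cancer line of mesenchymal character. The shScramble line carries a scrambled control hairpin under doxycycline control and was grown without doxycycline (4 libraries) or with it (4 libraries). The shAKAP2 line carries a hairpin against AKAP2, an A-kinase anchoring protein, and was likewise grown without (4 libraries) or with doxycycline (4 libraries). The sources used here state no dose, duration or hairpin sequence, nor whether either line is a single clone. Biological replicates are numbered 1 to 4 in the labels, which do not say whether equal numbers mark a shared culture or day, so p-values measure only the spread between these libraries.

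Replicates 1 and 2 were set against replicates 3 and 4 with doxycycline as a covariate, and replicate 1 was set against replicates 2 to 4. Both groupings were proposed from expression values of these same libraries. Differences between them are therefore described and not tested, and a Benjamini-Hochberg adjusted p under 0.05 from edgeR's quasi-likelihood test serves there only as a descriptive cut. Tests were kept for measures that the groupings did not use, namely the same replicate numbers in the shAKAP2 line and the doxycycline effect within shScramble.

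As background, cultured cancer cells adjust lipid synthesis, glycolysis and cell division to nutrients, oxygen and crowding. Low sterol releases the SREBP transcription factors, which switch on cholesterol and fatty acid synthesis. Low oxygen stabilises HIF, which raises glycolytic enzymes. NF-kB drives chemokines and adhesion molecules, and FOXO factors act when growth factor signalling is low and favour arrest. E2F and MYC drive replication genes and ribosome assembly in dividing cells.

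Total counts in the 8 libraries ran from 25411278 to 37472525, and 15566 of 57500 genes were tested. Replicate 1 without doxycycline was the deepest shScramble library, at 37472525 counts, and replicate 1 with doxycycline had 26235862. The 8 MDA-MB-231 markers (VIM, CD44, CAV1, AXL, ZEB1, KRT18, MSN and ANXA1) were all tested and summed to 7146 to 7287 counts per 1000000 counts (CPM) in replicate 1 and to 6999 to 7761 CPM in replicates 3 and 4. The sum of 8 luminal markers, 5 of them tested, was 289 to 327 CPM in replicate 1 and 179 to 228 CPM in replicates 3 and 4, most of it KRT19. Of the 5 tested, 3 were past the cut higher in replicate 1 than in replicates 2 to 4 and 0 lower. Over all genes tested, 12.5% were past it higher and 11.6% lower. KRT19 read 246 and 281 CPM in replicate 1 against 149 to 193 CPM in the other libraries of the line. ESR1 and FOXA1, of the same list, stood at 0.0268 CPM or less and at 0.078 CPM or less in every shScramble library. The 8 blood cell markers summed to 68.1 to 113 CPM in replicate 1 and to 78.1 to 162 CPM in replicates 3 and 4, nearly all of it LAPTM5, and PTPRC reached at most 2.62 CPM. Fibroblast markers summed to 46.7 to 70.5 CPM in replicate 1 and 24.8 to 55.2 CPM in replicates 3 and 4, and endothelial markers to 9.83 to 13.9 and 8.02 to 12.1 CPM. PECAM1, of the endothelial list, was higher in replicate 1 (3.38 and 7.95 CPM) than in the other 6 libraries (at most 2.23 CPM), while KDR, the main part of that sum, was 6.17 and 5.81 CPM in replicate 1 against 4.21 to 9.43 CPM, and CDH5 and VWF stayed at 0.111 CPM or less. The part of such cells in the differences was not tested, and in bulk RNA fewer cells of a type and less RNA per cell cannot be told apart. AKAP2, the hairpin target, stood at 0.858 to 2.38 CPM in shScramble, at 1.38 to 1.45 CPM in uninduced shAKAP2 and at 0 to 0.124 CPM in induced shAKAP2; its exons overlap those of PALM2-AKAP2, so its counts are uncertain.

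The first principal component of the 8 shScramble libraries held 32.0% of the variance and set replicate 1 apart, at 39.9 without and 51.3 with doxycycline. Replicate 2 stood at -3.86 and -4.90, and the 4 libraries of replicates 3 and 4 stood between -25.2 and -12.8. The second component, with 18.2% of the variance, separated libraries without from libraries with doxycycline in replicates 2 to 4, while the replicate 1 libraries lay at 0.607 and -4.01. The root mean square deviation from the group mean was 0.424 and 0.461 on the log2 scale in replicate 1, against 0.293 to 0.352 in the other 6. The 100 most abundant genes took 19.2% and 19.7% of replicate 1's counts and 17.2% to 18.1% elsewhere in the line, and mitochondrially encoded genes took 3.62% and 2.97% against 2.20% to 3.02%.

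**Figure D1:**
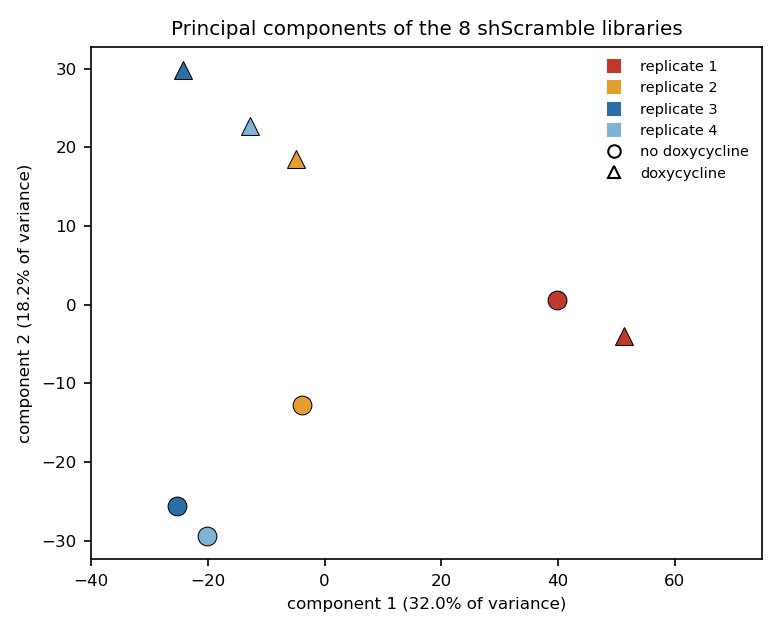
Positions of the 8 shScramble libraries on the first (x axis) and second (y axis) principal components of log2 CPM, with colour for the replicate number and shape for doxycycline. Both replicate 1 libraries sit at 39.9 or more on component 1, and all others below 0.

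Between replicates 1 and 2 and replicates 3 and 4, no gene passed the cut in either direction (0% of 15566), and the smallest adjusted p was 0.0833; 2854 genes had an unadjusted p under 0.05 by edgeR. There were 667 genes with all 4 libraries of replicates 1 and 2 above all 4 of replicates 3 and 4, or 4.28% of those tested, and 531 with all 4 below, or 3.41%. Lists that lay to one side without overlap included NF-kB response (11 of 29 tested members higher, 0 lower), cholesterol synthesis and uptake (7 of 24 higher, 0 lower), G1/S and DNA replication (7 of 39 lower, 0 higher) and MHC class II (5 of 8 higher, 0 lower). DESeq2 put 431 genes higher and 118 lower past the same cut. With both replicate 2 libraries left out, edgeR placed 1725 genes higher and 1514 lower past it, with both replicate 1 libraries left out 35 and 5, and without replicate 3 or replicate 4 it placed 0.

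Replicate 1 on its own carried most of the difference. Against replicates 2 to 4, 1948 genes stood higher past the cut (12.5% of those tested) and 1812 lower (11.6%), with a median log2 fold change of 0.55 among the higher and -0.42 among the lower. Changes of 2-fold or more past the cut numbered 376 higher and 98 lower. In 2518 genes (16.2% of those tested) both replicate 1 libraries lay above the other 6, and in 2545 (16.3%) both lay below. The differences were spread over the genome: by chromosome, among those with at least 100 tested genes, the median log2 fold change ranged from -0.08 on chromosome 13 to 0.05 on chromosome 21, and the share past the cut on the higher side from 7.35% to 16.9%.

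The 8 genes that the naming rule took for their excess in replicate 1 were CHI3L2, PDZK1IP1, C3, LRG1, AGR2, SLCO4C1, CFI and HLA-DOA, the last described with the MHC class II genes. CHI3L2 (ENSG00000064886; GRCh38 chromosome 1, 111200771 to 111243440, plus strand), a chitinase-like secreted protein, read 9.74 CPM without and 6.94 CPM with doxycycline in replicate 1. The other 6 libraries held 0.0783 to 0.612 CPM of it, so replicate 1 was 24.8-fold above their mean of 0.337 ± 0.231 CPM (SD, n = 6). C3 (ENSG00000125730; chromosome 19, 6677704 to 6730562, minus strand), the central complement component, read 10.4, 0.516, 0.967 and 0.622 CPM in replicates 1 to 4 without doxycycline and 10.5, 2.55, 1.92 and 1.28 CPM with it. Only replicate 1 was high in either condition, 7.97-fold above the mean of the others. CFI, the protease that inactivates complement C3b, stood at 2.93 and 3.23 CPM in replicate 1 against 0.138 to 0.915 CPM. LRG1, a secreted acute phase glycoprotein, stood at 2.60 and 4.25 CPM against 0.0691 to 0.544 CPM. AGR2, an endoplasmic reticulum disulfide isomerase of secretory epithelia, stood at 9.07 and 13.2 CPM against 0.553 to 2.17 CPM. PDZK1IP1, a small epithelial membrane protein, and SLCO4C1, an organic anion carrier, were 20.5-fold and 7.50-fold above the mean of the other 6 libraries. ELF3, an epithelial transcription factor of the luminal list and not 1 of the 8, stood at 8.94 and 8.15 CPM against 1.24 to 3.26 CPM. For the 8 genes, the naming rule itself required that replicate 1 and the other 6 libraries not overlap, so that separation is not a result.

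**Figure D2:**
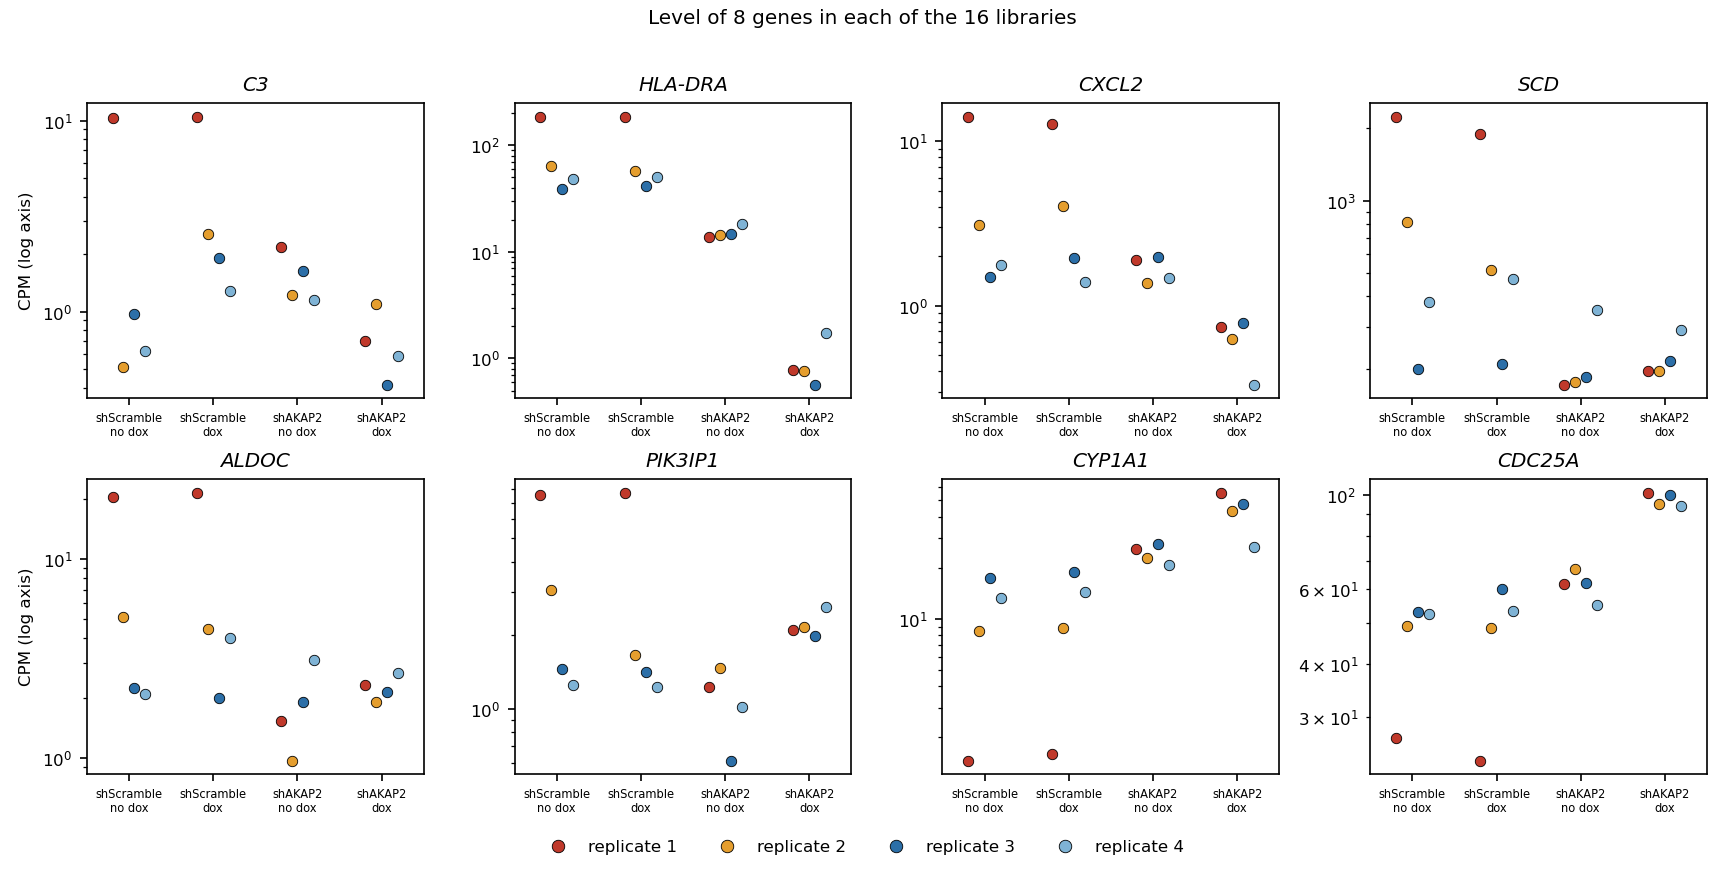
Level of 8 genes in CPM (y axis, log scale, each panel with its own range) in each of the 16 libraries, grouped by line and doxycycline, with 1 point per library coloured by replicate number. In shScramble the red replicate 1 points stand above the others for the first 6 genes and below them for CYP1A1 and CDC25A, and in shAKAP2 they lie within or next to the range of the other replicates.

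Lipid synthesis genes stood higher together. Of 24 cholesterol synthesis and uptake genes, all tested, 22 were past the cut on the higher side and 0 on the lower, with a median log2 fold change of 0.76 against 0.01 over all genes tested. SCD (ENSG00000099194; chromosome 10, 100347124 to 100364834, plus strand), the desaturase that makes monounsaturated fatty acids, read 2230, 812, 200 and 380 CPM in replicates 1 to 4 without doxycycline and 1885, 515, 209 and 470 CPM with it. Replicate 1 was highest in both conditions, and replicate 3 was lowest. Genes named from the lists had no overlap between replicates 1 and 2 and replicates 3 and 4 by rule. That replicate 2 lies beyond replicates 3 and 4 in them therefore follows from the choice. INSIG1, which retains SREBP in the endoplasmic reticulum when sterol is plentiful, read 334 and 335 CPM in replicate 1, 204 and 150 CPM in replicate 2, 68.2 and 75.1 CPM in replicate 3 and 123 and 127 CPM in replicate 4. The sterol synthesis enzymes MSMO1 and HMGCS1 were 2.38-fold and 1.96-fold above the mean of the other 6. Of 10 fatty acid synthesis genes tested, 6 were past the cut on the higher side and 0 on the lower, with a median of 0.70; SREBF1, which encodes SREBP-1, stood at 113 and 85.2 CPM against 27.0 to 68.0 CPM. Neither SREBF1 nor INSIG1 was past the cut, although replicate 1 was the highest for both in each condition. The sterol element letters TCACNCCAC, sought on either strand, occurred in 1 of 18 matched promoters of the cholesterol list (5.56%) and in 1.15% of all promoters of that length, and the INSIG1 and HMGCS1 windows held no match.

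Hypoxia and glycolysis genes also stood higher. Of 22 hypoxia genes tested, 17 were past the cut on the higher side and 1 on the lower, with a median of 0.81. BNIP3 (ENSG00000176171; chromosome 10, 131966455 to 131982013, minus strand), a mitophagy receptor, read 376, 214, 183 and 189 CPM without and 454, 234, 184 and 204 CPM with doxycycline in replicates 1 to 4. Replicate 1 was highest in both conditions, 2.06-fold above the mean of the others. DDIT4, an inhibitor of mTORC1, and P4HA1, a collagen prolyl hydroxylase, were 2.09-fold and 1.97-fold above it. The hypoxia gene past the cut on the lower side was SLC2A1, a glucose transporter, looked up after its values were seen. ANGPTL4, a secreted lipase inhibitor in the same list, was not past the cut, at 0.966 and 0.819 CPM against 0.922 to 2.31 CPM, with overlap. Of 18 glycolysis genes tested, 12 were past the cut on the higher side and 0 on the lower, with a median of 0.32. ALDOC (ENSG00000109107; chromosome 17, 28573115 to 28577264, minus strand), a fructose-bisphosphate aldolase, read 20.5, 5.09, 2.25 and 2.09 CPM without and 21.6, 4.45, 2.00 and 4.02 CPM with doxycycline. PGK1, phosphoglycerate kinase, read 1779 and 2104 CPM in replicate 1 against 977 to 1124 CPM. The promoters of BNIP3 and ALDOC are shown because both genes stood out in this group and hold the core letters of the hypoxia response element, ACGTG, found on either strand and given in capitals. They are RefSeq sequences of GRCh38.p14, each 300 bases long and spanning the annotated start, 5′ to 3′ on the gene's strand: BNIP3 at chr10:131981874-131982173, minus strand, and ALDOC at chr17:28576846-28577145, minus strand.
BNIP3: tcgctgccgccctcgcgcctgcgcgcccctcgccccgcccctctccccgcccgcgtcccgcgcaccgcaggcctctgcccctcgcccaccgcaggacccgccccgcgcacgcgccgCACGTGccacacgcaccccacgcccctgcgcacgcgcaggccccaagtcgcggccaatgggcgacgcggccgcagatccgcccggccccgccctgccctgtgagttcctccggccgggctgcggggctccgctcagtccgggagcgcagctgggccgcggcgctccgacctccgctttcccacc
ALDOC: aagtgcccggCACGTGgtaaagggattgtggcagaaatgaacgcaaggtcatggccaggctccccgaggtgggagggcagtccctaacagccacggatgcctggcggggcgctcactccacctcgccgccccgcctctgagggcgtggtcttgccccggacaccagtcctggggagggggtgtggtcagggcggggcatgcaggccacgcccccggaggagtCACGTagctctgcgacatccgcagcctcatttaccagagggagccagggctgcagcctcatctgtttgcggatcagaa
The letters occurred in the promoters of 9 of 19 matched hypoxia genes (47.4%) and in 21.6% of all 27305 promoters of that length; overlapping matches on opposite strands (CACGTG) count once for each strand.

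NF-kB targets and antigen presentation genes stood higher, and MHC class II had the largest median of the 44 lists. Of 29 NF-kB and inflammatory cytokine genes tested (30 listed), 19 were past the cut on the higher side and 0 on the lower, with a median of 0.92. CXCL2 (ENSG00000081041; chromosome 4, 74097035 to 74099293, minus strand), a neutrophil chemokine, read 14.1, 3.10, 1.49 and 1.76 CPM without and 12.8, 4.04, 1.96 and 1.39 CPM with doxycycline in replicates 1 to 4. Replicate 1 was 5.88-fold above the mean of the others. Replicate 2 was next in each condition, which the rule for naming genes from lists ensures once replicate 1 is highest. ICAM1, an adhesion ligand of leukocyte integrins, read 136 and 112 CPM in replicate 1, 45.9 and 50.3 CPM in replicate 2 and 18.3 to 35.1 CPM in replicates 3 and 4. VCAM1 (chromosome 1, 100719742 to 100739045, plus strand), a second leukocyte adhesion ligand, read 10.6 and 11.7 CPM, 4.72 and 4.45 CPM, and 0.932 to 2.97 CPM in the same order. CXCL2 and VCAM1 promoters, at chr4:74099146-74099445 (minus strand) and chr1:100719492-100719791 (plus strand), are given with matches to a kappa-B pattern, GGNNTTTCC on either strand, in capitals.
CXCL2: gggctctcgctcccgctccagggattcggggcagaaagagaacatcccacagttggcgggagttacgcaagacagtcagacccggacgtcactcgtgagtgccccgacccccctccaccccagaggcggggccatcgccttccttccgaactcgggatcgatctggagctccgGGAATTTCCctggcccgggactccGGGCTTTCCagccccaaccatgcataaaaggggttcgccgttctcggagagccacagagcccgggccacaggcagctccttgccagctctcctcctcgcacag
VCAM1: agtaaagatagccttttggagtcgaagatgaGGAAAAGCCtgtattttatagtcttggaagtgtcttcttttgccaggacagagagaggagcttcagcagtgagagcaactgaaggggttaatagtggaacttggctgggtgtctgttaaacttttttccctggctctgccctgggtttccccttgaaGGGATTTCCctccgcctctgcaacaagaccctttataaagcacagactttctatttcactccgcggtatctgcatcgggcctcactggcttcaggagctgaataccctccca
That pattern occurred in 14 of 23 matched promoters of the list (60.9%) and in 6.26% of all promoters. All 8 tested MHC class II genes (10 listed) were past the cut on the higher side, with a median of 1.66. HLA-DRA (ENSG00000204287; chromosome 6, 32439842 to 32445046, plus strand), the invariant alpha chain of HLA-DR, read 185, 64.6, 38.9 and 48.3 CPM without and 185, 56.9, 41.3 and 50.9 CPM with doxycycline. HLA-DRB1, HLA-DPA1 and HLA-DMA were 3.91-fold, 3.73-fold and 2.66-fold above the mean of the other 6 libraries, and HLA-DOA, which tempers peptide loading, 6.48-fold. Counts of HLA genes are uncertain because near-identical copies can share reads. Of 13 MHC class I presentation genes tested, 10 were past the cut on the higher side and 1 on the lower; B2M, the class I light chain, read 1574 and 1935 CPM against 926 to 1193 CPM. The 41 interferon response genes did not move as one, with 10 past the cut on the higher and 4 on the lower side and a median of 0.19; IFI27, an interferon-induced gene, was 1.93-fold above the mean of the others.

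FOXO targets and lysosomal genes stood higher as well. Of 14 FOXO targets tested, 10 were past the cut on the higher and 1 on the lower side, with a median of 0.65. PIK3IP1, an inhibitor of PI3 kinase, read 7.52 and 7.68 CPM in replicate 1 against 1.23 to 3.06 CPM. TXNIP, which restrains glucose uptake, read 527 and 484 CPM against 188 to 249 CPM, and CCNG2, a cyclin of arrested cells, 89.1 and 89.0 CPM against 38.8 to 51.3 CPM. FBXO32, a muscle atrophy ubiquitin ligase, was 1.61-fold above the mean of the others. Of 27 lysosome and autophagy genes tested, 12 were past the cut on the higher and 0 on the lower side, and of 18 unfolded protein response genes 10 and 0, with medians of 0.26 and 0.25; HEXA, a lysosomal hexosaminidase, and XBP1, a transcription factor of the unfolded protein response, were 1.58-fold and 1.41-fold above the mean of the others. Of the AP-1 subunits, JUNB and JUND were 2.15-fold and 2.00-fold above that mean, while FOSL1 lay below it, at 172 and 186 CPM against 296 to 377 CPM.

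Cell division and ribosome assembly genes stood lower. Of 39 G1/S and DNA replication genes tested, 32 were past the cut on the lower side and 0 on the higher, with a median of -0.48. CDC25A (ENSG00000164045; chromosome 3, 48157146 to 48188402, minus strand), the phosphatase that activates cyclin-dependent kinase 2, read 26.9, 49.2, 53.01 and 52.3 CPM without and 23.7, 48.7, 60.1 and 53.3 CPM with doxycycline. Replicate 1 held less than each of the others, whose mean was 2.09 times as high. CLSPN, a replication checkpoint adaptor, and UHRF1, which maintains DNA methylation, read 37.5 and 33.3 CPM against 56.1 to 72.9 CPM, and 91.9 and 77.0 CPM against 132 to 155 CPM. Of 39 tested G2/M and mitosis genes (40 listed), 35 were past the cut on the lower side and 0 on the higher, with a median of -0.43. CDC20, the activator of the anaphase-promoting complex, read 134, 206, 253 and 241 CPM without and 139, 188, 222 and 209 CPM with doxycycline in replicates 1 to 4. PLK1, a mitotic kinase, read 106 and 104 CPM in replicate 1 against 137 to 182 CPM. Their promoters are given from chr1:43358731-43359030 (CDC20, plus strand) and chr16:23678639-23678938 (PLK1, plus strand). Matches to the letters of the cell cycle homology region, TTTGAA on either strand, are in capitals, and whether they act was not tested.
CDC20: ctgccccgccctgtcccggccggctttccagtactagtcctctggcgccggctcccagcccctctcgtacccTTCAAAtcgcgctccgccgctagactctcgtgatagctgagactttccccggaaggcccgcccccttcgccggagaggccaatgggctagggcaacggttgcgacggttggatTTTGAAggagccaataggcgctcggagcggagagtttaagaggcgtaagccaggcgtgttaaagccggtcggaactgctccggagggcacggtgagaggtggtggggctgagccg
PLK1: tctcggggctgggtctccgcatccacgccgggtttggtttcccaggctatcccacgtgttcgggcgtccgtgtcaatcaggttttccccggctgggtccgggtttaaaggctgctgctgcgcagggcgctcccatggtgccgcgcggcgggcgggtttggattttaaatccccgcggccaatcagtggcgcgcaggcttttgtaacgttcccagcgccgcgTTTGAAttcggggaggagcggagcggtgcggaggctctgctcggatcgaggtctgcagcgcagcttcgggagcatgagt
The pattern occurred in 22 of 33 matched promoters of the G2/M list (66.7%) and in 15.4% of all promoters. Of 32 MYC target and ribosome biogenesis genes tested, 26 were past the cut on the lower side and 0 on the higher, with a median of -0.48; RRP12, NOP2 and BOP1, which process ribosomal RNA, had 1.75, 1.61 and 1.79 times the replicate 1 level in the other 6 libraries.

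Other genes stood lower too. CYP1A1 (ENSG00000140465; chromosome 15, 74719542 to 74725610, minus strand), the aryl hydrocarbon receptor target that oxidises aromatic compounds, read 1.45, 8.52, 17.5 and 13.2 CPM without and 1.60, 8.83, 18.9 and 14.4 CPM with doxycycline in replicates 1 to 4. The other 6 libraries averaged 8.91 times replicate 1, and replicate 2 was second lowest in both conditions. KRTAP2-3, a keratin-associated protein of a family of near-identical copies, was at 0 and 0.0390 CPM in replicate 1 and at 0.775 to 2.73 CPM elsewhere. IL11, a cytokine of the metastasis list, read 17.8 and 19.8 CPM against 30.9 to 42.3 CPM, and HBEGF, an EGF receptor ligand, 78.2 and 58.8 CPM against 98.4 to 123 CPM. SLC3A2, the heavy chain of amino acid exchangers, read 204 and 170 CPM against 275 to 326 CPM. POTEE, CFAP45, TCF7 and PLEKHG4B also lay below the other 6 libraries, all at a few CPM or less. The mean of those 6 was 3.90, 3.03, 2.87 and 2.92 times the replicate 1 level. For CYP1A1, KRTAP2-3 and these genes the naming rule required that replicate 1 lie below the other 6 libraries, so that separation is not a result. Among the adhesion lists, 9 of 29 focal adhesion genes and 12 of 25 YAP/TAZ targets were past the cut on the lower side, with 2 and 1 on the higher; ZYX, a focal adhesion adaptor, read 102 CPM in both replicate 1 libraries against 133 to 158 CPM.

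**Figure D3:**
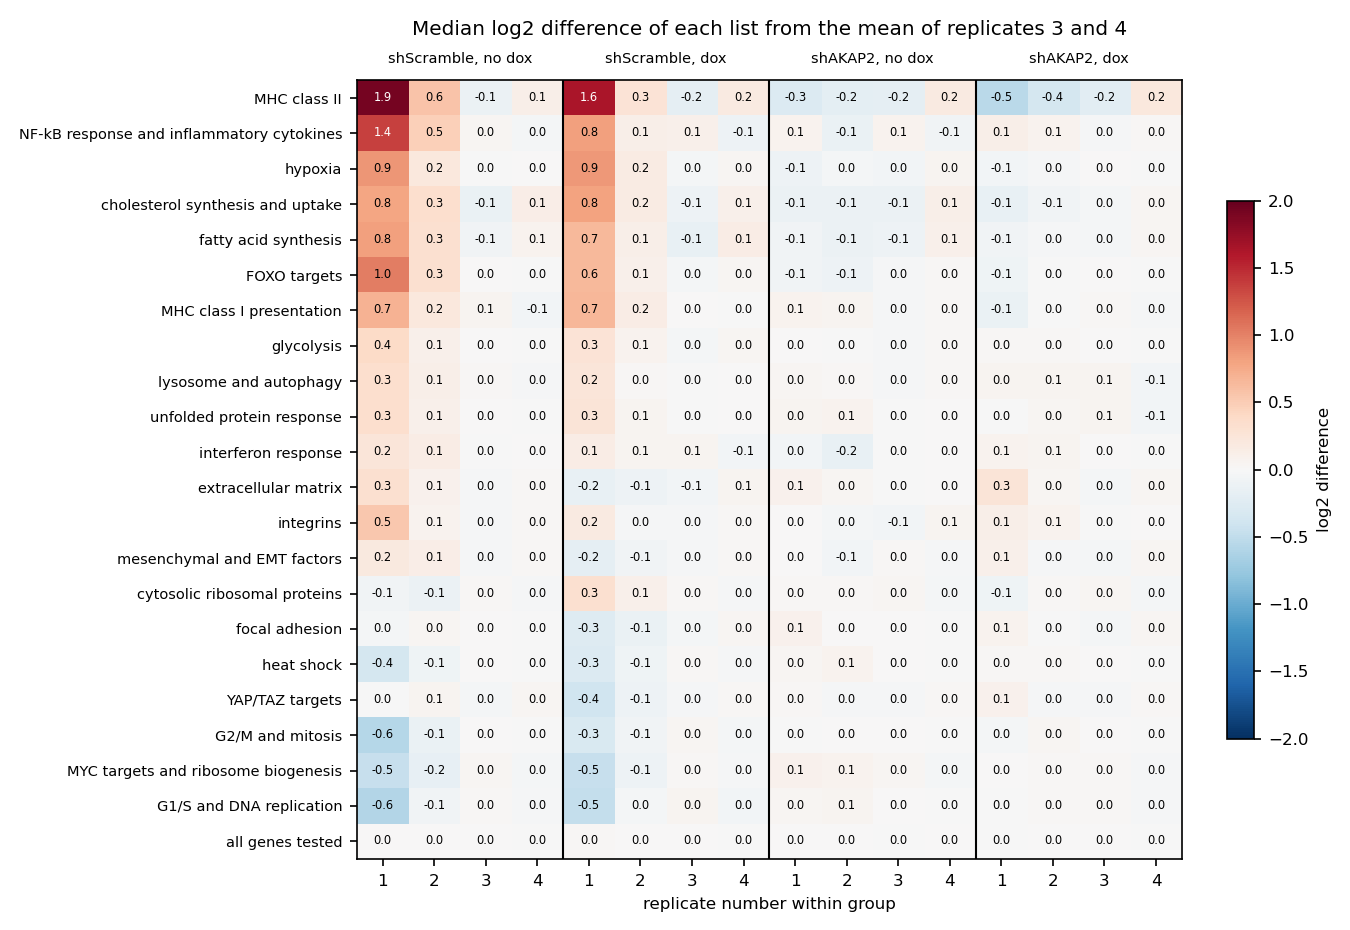
Median over list members of the log2 CPM difference from the mean of replicates 3 and 4 of the same group, for 21 gene lists and all genes tested (rows) in the 16 libraries (columns, replicate number within group); red is higher and blue lower, and each cell prints its value. For the MHC class II, NF-kB, hypoxia, cholesterol, G2/M and ribosome biogenesis lists, the departures of replicate 1 of shScramble shrink in replicate 2 and are not matched in replicate 1 of shAKAP2. Not all rows follow this, among them extracellular matrix and cytosolic ribosomal proteins.

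The 2 replicate 1 libraries did not differ from the rest in the same way for every list. The median log2 difference from replicates 3 and 4 of the same condition was 1.37 without and 0.82 with doxycycline for the NF-kB list, 1.02 and 0.64 for FOXO targets, and 0.79 and 0.81 for cholesterol synthesis. For extracellular matrix genes it was 0.31 without and -0.16 with doxycycline, for cytosolic ribosomal proteins -0.06 and 0.32, for nuclear-encoded oxidative phosphorylation -0.12 and 0.26, and for YAP/TAZ targets -0.01 and -0.40. Beside this, the library deviations had opposite relations to transcript length: across 15514 genes, Spearman's rho with exonic length was 0.08 in replicate 1 without and -0.15 with doxycycline, and in the other 6 libraries -0.14 to 0.19. The part of length in these differences was not tested.

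For 6 lists described above, the medians of replicate 2 lay between those of replicate 1 and of replicates 3 and 4. The median log2 difference from replicates 3 and 4 was 1.81 in replicate 1 and 0.43 in replicate 2 for MHC class II, 1.01 and 0.23 for the NF-kB list, 0.87 and 0.26 for cholesterol synthesis, 0.88 and 0.23 for hypoxia, -0.47 and -0.10 for G2/M, and -0.51 and -0.12 for ribosome biogenesis. The comparisons share replicates 3 and 4 and are given side by side only. Of the 2518 genes with both replicate 1 libraries above the other 6, 466 (18.5%) also had both replicate 2 libraries above all of replicates 3 and 4, and of the 2545 below, 376 (14.8%) had both below. The same share over all genes tested was not counted, so whether these shares are large cannot be said. Replicates 3 and 4 differed between themselves in sterol genes: SCD was 1.90 and 2.25 times as high in replicate 4 as in replicate 3 without and with doxycycline.

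Replicate 1 of the shAKAP2 line did not repeat the pattern. In that line, replicates 1 and 2 against 3 and 4 gave 2 higher genes (0.0128%) and 0 lower by edgeR at the adjusted cut, with 1223 genes at an unadjusted p under 0.05. Both encode fast-responding transcription regulators. EGR1 (chromosome 5, 138465490 to 138469315, plus strand) read 29.1, 21.4, 13.6 and 12.2 CPM without and 39.4, 28.0, 22.4 and 17.5 CPM with doxycycline in replicates 1 to 4, and was higher by 0.86 ± 0.13 (SE) on the log2 scale (edgeR adjusted p = 0.0406). ID1 was higher by 0.37 ± 0.07 (edgeR adjusted p = 0.0406). Without replicate 1 or without replicate 4, 0 genes were called higher, and without replicate 2 or replicate 3, 55 and 11. Replicate 1 against replicates 2 to 4 gave 35 higher (0.225%) and 10 lower genes (0.0642%) in shAKAP2. POLR2A, the largest subunit of RNA polymerase II, read 100, 87.2, 82.8 and 79.5 CPM without and 162, 120, 104 and 119 CPM with doxycycline there, higher by 0.39 ± 0.06 (edgeR adjusted p = 0.00331). HELZ2, EP400, SASH1 and CAD were also higher, by 0.52, 0.43, 0.40 and 0.39, and FST, ZMYM6, LGR4, GULP1 and STARD4 fell by 0.51, 0.49, 0.42, 0.38 and 0.37 on the log2 scale.

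None of those calls was past the cut on the same side in shScramble, and 24 of the 45 were not past it there on either side. Of the 1948 genes higher in replicate 1 of shScramble, 0 were called higher and 8 lower in replicate 1 of shAKAP2 (0.411% of that list and 8 of the 10 lower calls). Of the 1812 lower ones, 13 were called higher (0.717%, and 13 of the 35 higher calls) and 0 lower. STARD4, a sterol carrier, was such a case, at 118 and 145 CPM in replicate 1 of shScramble against 54.4 to 84.1 CPM in its other libraries, and at 43.6 and 59.1 CPM in replicate 1 of shAKAP2 against 50.7 to 79.3 CPM. In shAKAP2 the cholesterol, fatty acid, hypoxia, glycolysis, NF-kB, MHC, FOXO, replication, mitosis and ribosome biogenesis lists had medians from -0.26 (MHC class II) to 0.06 (NF-kB), with 1 call in cholesterol synthesis, STARD4, and 1 in ribosome biogenesis, CAD. The shAKAP2 calls came with transcript length: the 35 higher genes had a median exonic length of 10265 bases against 4570 over all genes tested, and Spearman's rho of the fold change with length across 15514 genes was 0.182, with 0.225 for the induced replicate 1 library alone. For replicate 1 in shScramble, the same rho was -0.04, and the genes past the cut had median lengths of 4766 (higher) and 5341 bases (lower). The part of length in the shAKAP2 calls was not tested. They also rested on single libraries: without replicate 1 of induced shAKAP2, 0 genes were called in either direction, without replicate 1 of uninduced shAKAP2 236 were called higher and 16 lower, and without 1 of the other 6 libraries 4 to 90 higher and 2 to 33 lower. The shAKAP2 library that leaned most towards replicate 1 of shScramble was uninduced replicate 4. Its gene deviations had correlations of 0.109 and 0.138 with those of the uninduced and induced replicate 1 libraries of shScramble, across genes, against 0.0735 or less for the other 7 shAKAP2 libraries; these share no library, and genes are not independent replicates. SCD stood at 352 CPM in it against 172 to 186 CPM in the other 3 uninduced shAKAP2 libraries, and INSIG1 at 120 against 64.9 to 72.3 CPM.

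**Figure D4:**
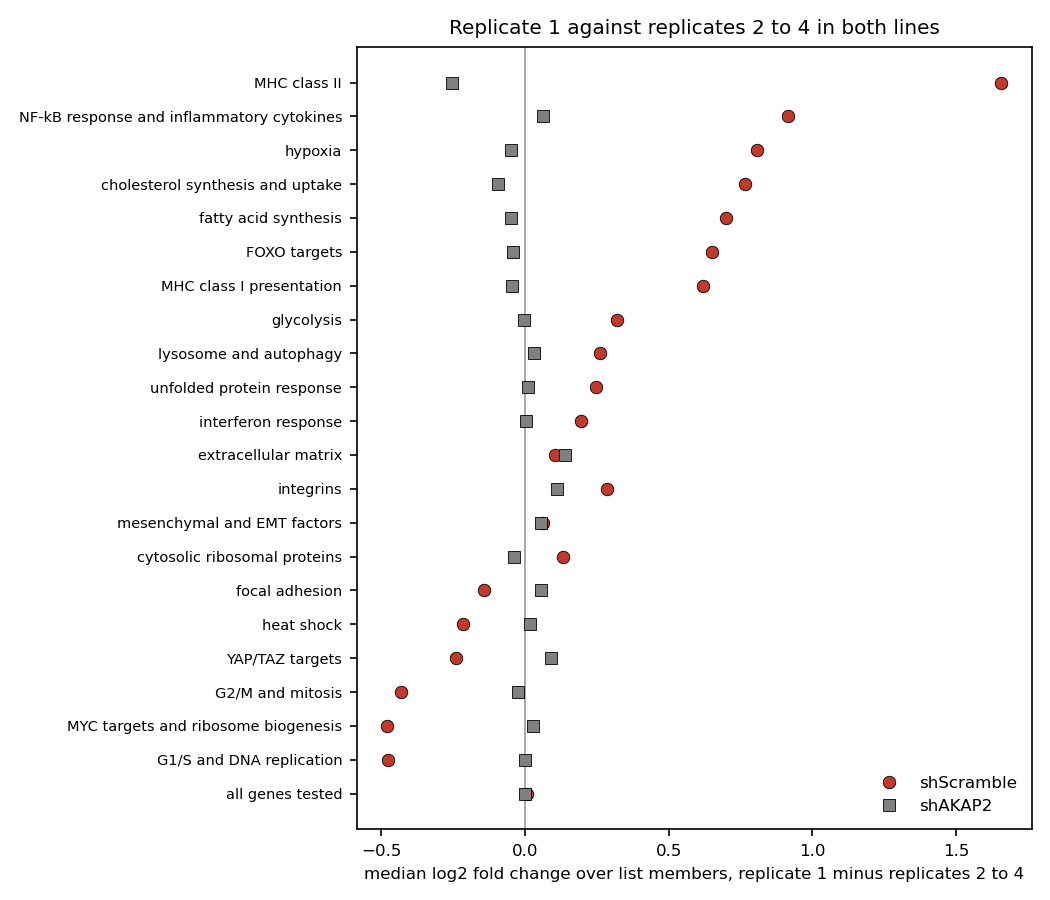
Median log2 fold change of replicate 1 against replicates 2 to 4 (x axis) for 21 gene lists and all genes tested (y axis), with circles for shScramble and squares for shAKAP2. The shScramble medians run from -0.48 to 1.66 and the shAKAP2 medians from -0.26 to 0.14.

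In the test of whether the doxycycline effect differed between replicates 1 and 2 and replicates 3 and 4 of shScramble, the interaction gave 0 genes by edgeR (0% of 15566), with 1334 at an unadjusted p under 0.05 and 1 by DESeq2. Across all 8 libraries doxycycline raised 14 genes (0.0899%) and lowered 24 (0.154%). HSD17B10, a mitochondrial dehydrogenase, read 43.6, 51.7, 59.0 and 55.9 CPM without and 19.2, 18.9, 17.8 and 17.9 CPM with doxycycline in replicates 1 to 4, and fell by 1.51 on the log2 scale (edgeR adjusted p = 0.000128). DDX60, an antiviral helicase, read 34.6, 34.3, 31.7 and 35.5 CPM without and 64.0, 61.5, 58.9 and 53.4 CPM with it, and rose by 0.80 (edgeR adjusted p = 0.00221). Replicate 1 moved with the others in both genes. NCEH1, H2AFX, DYNLRB1 and SLITRK5 also fell, by 1.32, 1.18, 1.10 and 1.79, and PI16, ITGB2, LAPTM5 and ZNF114 rose, by 1.41, 1.29, 0.85 and 0.80. The number of calls depended on replicate 1: with both of its libraries left out, 508 genes rose and 299 fell, and with replicate 2, 3 or 4 left out 0 to 1 rose and 2 to 6 fell. With the replicate number as a term, 104 rose and 69 fell.

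The doxycycline difference in replicate 1 was also set against that in replicates 2 to 4, an alternative chosen after the data were seen. In replicate 1 it rests on 1 library with and 1 without doxycycline, so the spread comes from the other 6 libraries alone, and the result is a description with no test. There were 3 genes past the cut on the positive side (RPL35, RPS21 and LYPLA1) and 14 on the negative. The 14 were CCL4L2, CCL4, CCL3L1, CXCL9, PLEK, CCL5, CXCL10, GBP5, IL1B, A2M, HNRNPUL2, TANC2, SUPT6H and RRBP1, the first 10 with larger differences and lower levels than the last 4. CXCL10, a T cell chemokine, read 2.26, 0.812, 0.725 and 0.732 CPM without and 1.09, 7.98, 12.4 and 10.8 CPM with doxycycline in replicates 1 to 4. CXCL9 read 0.403, 0.0369, 0.0345 and 0 CPM without and 0, 2.07, 3.01 and 2.62 CPM with it. Both were thus low in replicate 1 with doxycycline and high in replicates 2 to 4 with it, and all 8 shAKAP2 libraries were as high, at 6.39 to 12.2 and 1.54 to 3.19 CPM. CHI3L1, which the naming rule took as lower in replicate 1, read 0.591, 0.848, 1.31 and 0.805 CPM without and 0.624, 6.32, 8.53 and 6.04 CPM with doxycycline. Like CXCL9 and CXCL10, it was low in replicate 1 with doxycycline and high in replicates 2 to 4 with it. Without doxycycline, replicate 1 was the lowest for CHI3L1 but the highest for CXCL9 and CXCL10. Some blood cell markers moved alongside. PTPRC read 0.0732 to 0.403 CPM without doxycycline, 0.390 CPM in replicate 1 with it and 1.37 to 2.62 CPM in replicates 2 to 4 with it. CD53 read 0 to 0.111, 0.0390 and 0.875 to 1.64 CPM in that order. HCLS1, SPI1 and TYROBP were also lower in induced replicate 1 than in induced replicates 2 to 4. LAPTM5 and CORO1A were lower in that library too, but LAPTM5 stood above all uninduced shScramble libraries in it. LAPTM5 read 67.0 to 91.9, 111 and 148 to 163 CPM in that order, and 41.4 to 68.4 CPM in shAKAP2. CORO1A read 0.161 to 1.10, 1.01 and 1.25 to 1.39 CPM. The part of such cells in this difference, and whether this low-level RNA came from the cultured cells, was not tested. Counts of CCL3L1, CCL4 and CCL4L2 are uncertain because near-identical copies can share reads. Exon overlaps with another gene also make counts uncertain, since the use of strand is not stated. Among the genes named by rule, the overlap is on the opposite strand for TCF7, EP400, STARD4, ITGB2, ZNF114, HMGCS1, SREBF1, DDIT4, ANGPTL4, P4HA1, ALDOC, ENO1, ICAM1, HLA-DPA1, ZYX, JUNB, CLSPN, PLK1, RRP12 and PIK3IP1. It is on the same strand for LRG1, CFI, CFAP45, ZMYM6, PGK1, HSPA8, NOP2, BOP1 and FGF5, and on both for ELF3, HLA-DMA and HEXA.

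**Figure D5:**
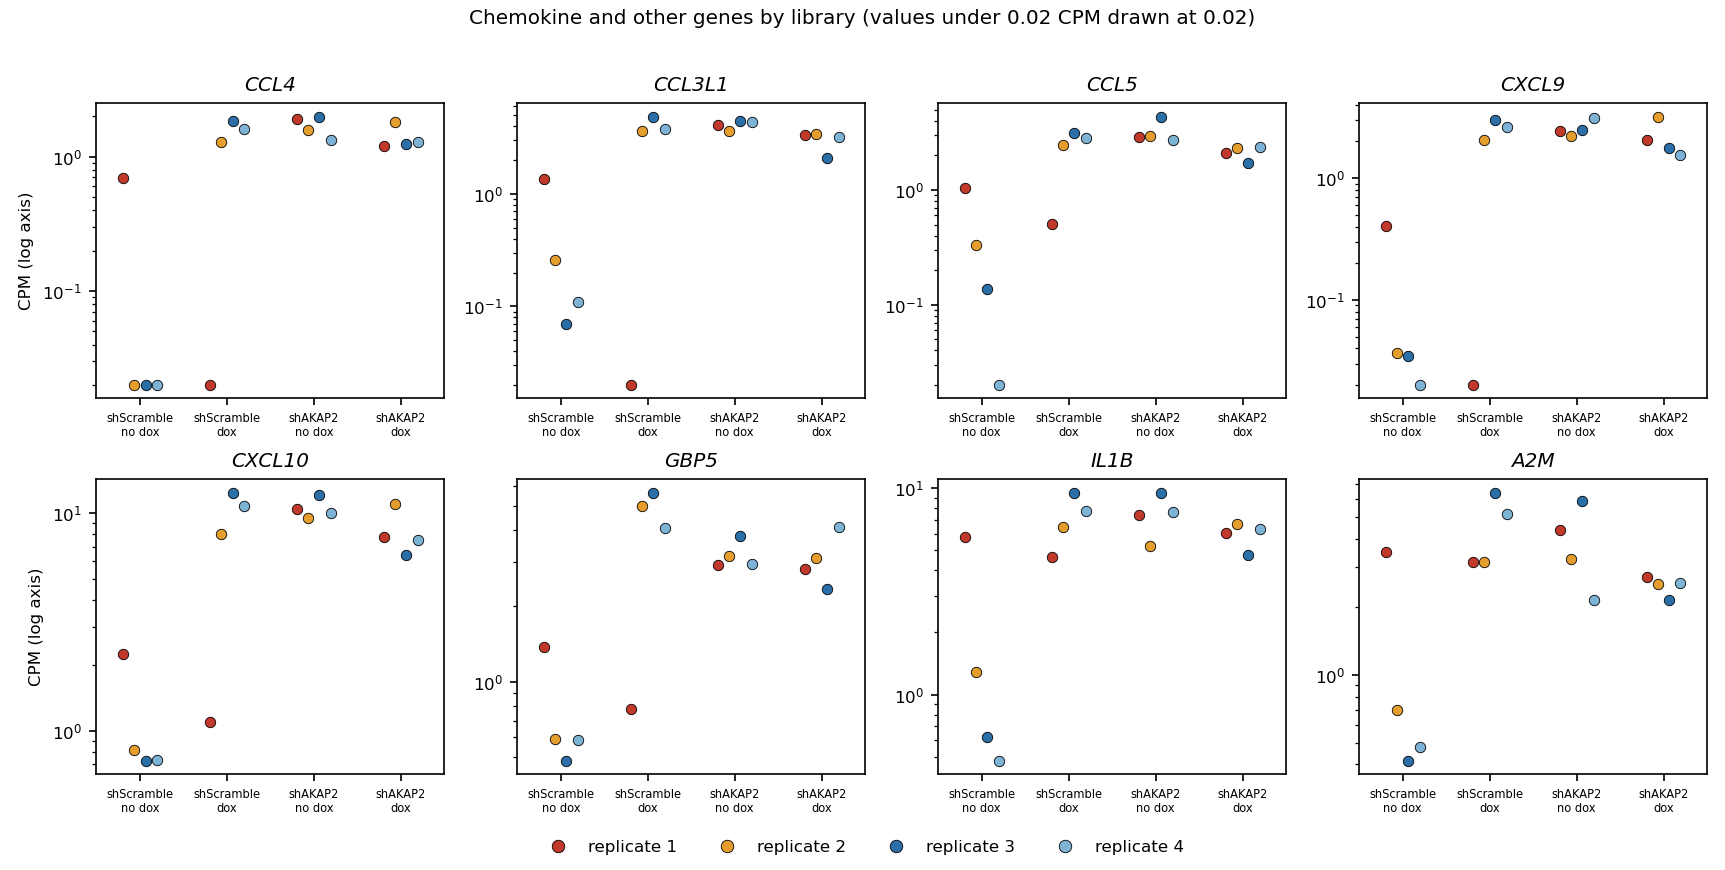
Level of 8 genes in CPM (y axis, log scale, values under 0.02 drawn at 0.02) in each of the 16 libraries, with 1 point per library coloured by replicate number. For CCL4, CCL3L1, CXCL9, CXCL10 and GBP5, uninduced shScramble replicates 2 to 4 and induced replicate 1 are lowest, and the other induced shScramble libraries stand at the level of the 8 shAKAP2 libraries.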

How the data were processed

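Polyadenylated RNA of 16 MDA-MB-231 libraries, 4 in each of 4 groups, was sequenced after NEBNext Ultra II library preparation, per the labels' protocols. STAR 2.5.2b, featureCounts, Subread 1.5.2 and the build GRCh38 are named in the submitters' processing notes; no source used here gives the annotation release or the use of strand, so overlapping genes, antisense genes and paralogs are uncertain. The authors deposited raw counts of reads for 57500 genes, of which 26937 had no count in any library. The counts were scaled by the trimmed mean of M values (TMM) over all 16 libraries, and CPM are counts per 1000000 of that scaled library size. The 15566 genes kept by filterByExpr held 99.9% of counts. Library totals ran from 24482997 to 37472525 counts.

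Each comparison was fitted with edgeR 4.0.16 (glmQLFit with robust shrinkage) in R 4.3.3 on the 8 libraries of a line, with doxycycline as a covariate except in the doxycycline effect itself. Adjusted p values are Benjamini-Hochberg over all genes tested, with calls under 0.05. Alternatives used limma 3.58.1 and DESeq2 1.42.0. The script was checked on simulated counts.

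The grouping of libraries, the gene lists (44, written from general knowledge) and the tests were chosen with earlier results of these data known. Named genes average 1 CPM or more and carry no clone name. For replicate 1 they are the 8 in each direction with the largest fold change past the cut and outside the other 6 libraries, for the tests up to 5 in each direction, and from each list up to 4 with the largest difference and no overlap between replicates 1 and 2 and replicates 3 and 4. The rule allowed 12 in each direction for replicates 1 and 2 against 3 and 4, but no gene passed. A few genes that the rule names are not reported here. Other named genes (PTPRC, CD53, PECAM1, the chemokines and their companions, and marker genes) were chosen after their values were seen. Positions come from GENCODE 29, in which 15516 of the genes tested were found, and promoters from RefSeq (GRCh38.p14).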

Additional observations from a re-analysis of the deposited data

Results flagged for a closer look

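Single libraries stood apart from the other 3 of their group by a gap over range above Dixon's 95% critical value for 4 samples in the measures below; chance gives this in about 1 group in 20. Genes named for replicate 1 of shScramble were picked for such gaps, so its values for them are not repeated here. The share of counts in the 100 most abundant genes was 19.2% in uninduced shScramble replicate 1 against 17.5% to 17.6%, and ZNF114 stood at 24.8 CPM there against 32.0 to 33.1 CPM. Elsewhere in shScramble, CLDN4 was 66.3 CPM in uninduced replicate 4 against 81.3 to 82.6 CPM, and NORAD 474 CPM in induced replicate 3 against 540 to 545 CPM.

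In the shAKAP2 line 131 named genes were screened in each group, and 11 had such a library without and 6 with doxycycline, so the induced count is near what chance gives. Uninduced replicate 4 stood apart in 6 of the 11: SCD at 352 CPM against 172 to 186, INSIG1 at 120 against 64.9 to 72.3, ENO1 at 3510 against 3219 to 3235, VCAM1 at 1.47 against 0.814 to 0.883, S100A4 at 668 against 578 to 588, and CLSPN at 76.6 against 87.9 to 89.9 CPM. Uninduced replicate 1 had CFI at 0.339 CPM against 0.0273 to 0.0384 and HLA-DOA at 0.645 against 0.0768 to 0.152 CPM. Uninduced replicate 3 had PI16 at 3.08 CPM against 3.63 to 3.66, EFEMP1 at 72.0 against 84.3 to 84.7 and FGF5 at 7.19 against 5.84 to 5.95 CPM. Induced replicate 1 had TXNIP at 377 CPM against 311 to 314, RRP12 at 45.7 against 35.5 to 36.5, VASP at 145 against 160 to 161 and JUND at 45.2 against 50.7 to 51.5 CPM. Induced replicate 3 had ITGB2 at 3.35 CPM against 4.69 to 4.94, and induced replicate 4 had TCF7 at 1.17 CPM against 0.453 to 0.526.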

How the results depend on the processing

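The counts for replicate 1 of shScramble were within 1.5 times of 1948 higher and 1812 lower under all alternatives run (size factors, DESeq2, limma-voom, no filter, blocks, all 16 libraries), except that without replicate 3 the lower count was 1200; leaving out libraries gave 1366 to 1882 higher and 1200 to 1726 lower. No gene named by rule and past the threshold changed direction, and genes chosen after their values were seen were not followed. At least 99.9% of the genes past the cut for replicate 1 kept their sign in each alternative. Fewer stayed past it: without replicate 3, 1348 of the 1948 higher and 1191 of the 1812 lower genes did. Fewer still did so with 1 of the 2 replicate 1 libraries left out, which leaves a single library on that side. For replicates 1 and 2 against 3 and 4 in shScramble (0 and 0), DESeq2 gave 431 and 118, no filter 710 and 459, all 16 libraries 683 and 410, and leaving out replicates 0 to 1725 and 0 to 1514. For the same split in shAKAP2 (2 higher, 0 lower), the counts were 5 and 1 with DESeq2's size factors, 10 and 5 with DESeq2, 9 and 1 with limma-voom, 37 and 30 without the filter, 31 and 16 in libraries without doxycycline, and 0 higher with all 16 libraries, in libraries with doxycycline and without the covariate; leaving out replicates gave 0 to 55 and 0 to 24. For replicate 1 of shAKAP2 (35 and 10), DESeq2 gave 97 and 55, no filter 132 and 72, all 16 libraries (chosen after the data were seen) 0 and 0, and leaving out libraries 0 to 236 and 0 to 33. The interaction (0 and 0) gave 1 lower with DESeq2, 2 and 24 without the filter, 3 and 14 with replicate 1 in place of the split, and 0 to 3 lower on leaving out libraries. The doxycycline effect (14 and 24) gave 77 and 72 with DESeq2, 35 and 40 without the filter, 34 and 38 with the split as a covariate, and 0 to 508 and 2 to 299 on leaving out replicates. The cause of these changes was not tested, beyond the different numbers of genes or libraries that some alternatives use.

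The labels do not say whether equal replicate numbers pair libraries, and the main fits did not pair them. The correlation of deviations within a number was 0.400, 0.0234, 0.197 and 0.0703 in shScramble and -0.0178 to 0.0530 in shAKAP2. The induced library that correlated best bore the same number for uninduced replicates 1 and 3 of shScramble and 1, 2 and 4 of shAKAP2. It bore another number for replicates 2 and 4 of shScramble and replicate 3 of shAKAP2. A replicate block as a random effect gave 10 and 1 for that split in shAKAP2, summing equal numbers gave 1 higher there and 25 and 1 for replicate 1, and a block as a fixed term gave 104 and 69 for doxycycline. In shScramble a random block gave 2575 and 2336 for replicate 1 and 0 and 0 for the split. With 2 libraries against 6, the spread within replicate 1 rests on 2 libraries, and genes of a few CPM have wide errors.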

Other observations

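Several lists with members past the cut on either side in replicate 1 of shScramble are not described above. Over all genes tested, 12.5% were past it on the higher and 11.6% on the lower side, and several counts below lie near those shares. Integrated stress response genes had 7 of 30 past the cut on the higher and 9 on the lower side, among the latter the amino acid transporter chain SLC3A2 and PPP1R15A, which reverses the translation block of that response (84.2 and 78.5 CPM against 90.4 to 115 CPM). Heat shock genes had 1 of 12 on the higher and 6 on the lower side: the chaperones HSPA8 (1727 and 2006 CPM against 2244 to 2722 CPM) and DNAJA1 were lower, and HSPB1 was 1.24-fold above the mean of the others. NRF2 targets had 4 of 16 higher and 3 lower, extracellular matrix genes 9 of 37 higher and 4 lower, and matrix proteases and inhibitors 9 of 26 higher and 4 lower, among them ADAMTS14 at 5.40 and 3.94 CPM against 0.822 to 1.53 CPM. Integrins had 7 of 16 higher and 2 lower, and growth factors and receptors 7 of 29 higher and 9 lower. Mitochondrially encoded genes lay to one side, with 7 of 13 higher and 0 lower, beside the mitochondrial share given above. Epithelial genes did so too, with 8 of 18 higher, 0 lower and a median of 0.33.

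Chemokine and myeloid genes followed a pattern across both lines, sought after its first members were seen. In 14 genes, every one of 11 libraries (shScramble replicates 2 to 4 with doxycycline and the 8 shAKAP2 libraries) was at least 2-fold above every one of 4 libraries (uninduced shScramble replicates 2 to 4 and induced replicate 1), with at least 0.5 CPM; in 0 genes was it the reverse. They were CCL3, CCL3L1, CCL4, CCL4L2, CCL5, CCL8, CCL20, CXCL9, CXCL10, CD53, CHI3L1, GBP5, MMP9 and PLEK, chemokines and genes typical of macrophages. The remaining library, uninduced shScramble replicate 1, lay between the sets in 11 of the 14. CXCL10 was at most 1.09 CPM in the 4 libraries and 6.39 to 12.4 CPM in the 11, and MMP9, a secreted gelatinase, at most 0.390 and 0.789 to 2.95 CPM. Whether this low-level RNA came from the cultured cells was not tested.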
